A study of Mus musculus with 20 samples.

Results

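The genes described are the machinery of MHC class I presentation in mouse kidney tumours: the heavy chains H2-K1, H2-D1, H2-Q4, H2-Q7 and H2-T23, the shared light chain B2m, and Nlrc5, a regulator of their transcription. The 7 genes were taken by name from a deposited table of 34234 genes, and all 7 were among the 15422 genes that were tested, those that reached 1 TPM in 5 or more libraries. TPM gives a transcript's share of all transcripts, corrected for transcript length and scaled to a fixed total. The tumours arose from MSRT1, a cell line given in the labels as renal medullary carcinoma, and total RNA was sequenced in bulk from 20 mice. Veh_IgG mice received vehicle and a control antibody, and GYY_IgG mice received the control antibody and GYY4137, a compound that releases hydrogen sulfide slowly. Veh_PD1 mice received vehicle and an antibody against PD1, an inhibitory receptor of T cells. GYY_PD1 mice received GYY4137 and the antibody against PD1. Each group holds 5 biological replicates, and the shared starting material is 1 cell line. Mouse strain, age, sex, doses and times are not given in the sources used here. Heavy chain genes are highly polymorphic, and the reference sequence is that of C57BL/6, so the H2 haplotype of these tumours and hosts is unknown. How well their heavy chain reads matched the reference, and so how the TPM of H2-K1, H2-D1, H2-Q4, H2-Q7 and H2-T23 compare with each other and with B2m, was not tested.

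MHC class I molecules carry peptides made inside a cell to its surface, where CD8 T cells read them, and their level can set whether a tumour cell is seen. The classical heavy chains and several non-classical ones need B2m to fold and leave the endoplasmic reticulum. Interferon gamma raises the whole set in most cells, through IRF1 and through NLRC5, which has no DNA-binding domain of its own and works with the RFX, CREB and NF-Y factors bound at class I promoters.

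The regulatory stretch before the start site is shown for the members compared below, since it holds the sites these regulators bind. Sequences are reference alleles from RefSeq on GRCm38.p6, which may differ from those in the tumours, and run 5′ to 3′ on the strand of the gene. An entry was matched for 6 of the 7 genes, and Nlrc5 had none. The 190 bases before the start are given for H2-K1 (chr17:34000348-34000537, minus strand), B2m (chr2:122147497-122147686, plus strand), H2-Q4 (chr17:35379427-35379616, plus strand) and H2-Q7 (chr17:35438965-35439154, plus strand). The last base of the B2m stretch is 1 exon base in GENCODE, the first of its gene. For H2-D1 (chr17:35262934-35262963, plus strand) and H2-T23 (chr17:36032805-36032834, minus strand) only 30 bases around the interferon element are given, because a GENCODE transcript of each gene starts further upstream. Capitals mark the letters of the interferon element (GAAANNGAA or GAANNGAAA), the kappa B site (GGGATTCCC), the X2 box core (TGACGC) and the Y box core (CCAAT), each on either strand. In the 30-base stretches they mark the interferon element alone.
H2-K1: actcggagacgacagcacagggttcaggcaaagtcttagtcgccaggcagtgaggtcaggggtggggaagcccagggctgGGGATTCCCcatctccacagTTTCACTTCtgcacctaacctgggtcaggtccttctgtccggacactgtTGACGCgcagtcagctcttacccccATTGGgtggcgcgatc
H2-Q7: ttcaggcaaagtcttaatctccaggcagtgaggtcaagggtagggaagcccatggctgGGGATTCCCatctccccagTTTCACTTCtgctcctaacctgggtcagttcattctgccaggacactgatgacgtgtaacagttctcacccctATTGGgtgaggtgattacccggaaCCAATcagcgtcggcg
H2-Q4: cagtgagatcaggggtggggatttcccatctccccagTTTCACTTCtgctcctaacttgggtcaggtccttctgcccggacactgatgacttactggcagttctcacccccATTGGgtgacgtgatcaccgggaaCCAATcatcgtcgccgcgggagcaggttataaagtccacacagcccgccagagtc
B2m: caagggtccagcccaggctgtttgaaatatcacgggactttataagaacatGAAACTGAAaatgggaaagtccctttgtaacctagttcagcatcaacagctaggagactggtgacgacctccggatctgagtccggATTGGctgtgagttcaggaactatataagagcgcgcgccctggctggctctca
H2-D1: atctcctcagTTTCACTTCtgcacctaacc
H2-T23: tcctactgctTTCTCTTTCataaagacaca

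Over the 250 bases before the start, H2-K1, H2-D1, H2-Q4 and H2-Q7 held the same interferon element letters (TTTCACTTC, a GAANNGAAA on the minus strand). GAANNGAAA was found in 6.31% of 32851 promoters of the same length, and was searched only after the member promoters had been seen. The form searched first, GAAANNGAA, was held by 2 of the 6, B2m (GAAACTGAA) and H2-T23 (TTCTCTTTC), and by 7.13% of promoters. The kappa B letters stood in H2-K1, H2-D1 and H2-Q7 and in 0.3% of all promoters, the X2 letters in H2-K1 and H2-D1 and in 6.12%, and CCAAT in all 6 and in 33.85%. CCAAT can lie inside other motifs and matches often by its short length. These are matches of letters and say nothing of binding in the tumours.

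The members lie at 3 places in the mm10 genome (GENCODE M21). H2-K1 (chr17:33996017-34000347), H2-D1 (chr17:35262730-35267499), H2-Q4 (chr17:35379617-35385290), H2-Q7 (chr17:35439155-35443773) and H2-T23 (chr17:36029773-36032855) are in the MHC on chromosome 17. B2m is on chromosome 2 (chr2:122147686-122153083) and Nlrc5 on chromosome 8 (chr8:94434356-94527272). The heavy chains resemble each other, so reads can be split between them. Of the 31-base words in their GENCODE coding transcripts, 20.3% in H2-K1, 27.9% in H2-D1, 48.1% in H2-Q7, 49.0% in H2-T23 and 58.4% in H2-Q4 also occur in transcripts of other genes, while B2m had 0% and Nlrc5 0.2%. The closest sharing was of H2-Q7 with H2-Q5 (29.1%), of H2-T23 with H2-T-ps (25.5%) and of H2-Q4 with its antisense neighbour Gm11131 (18.0%). H2-T23 is also overlapped on the other strand by A930015D03Rik, at 3.94 TPM on average against 27.5 TPM for H2-T23. Whether strand was used in quantification is not given in the sources used here.

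The libraries differed in ways that touch every value below. The share of TPM taken by the gene model Gm10800 ran from 2.79% to 10.9% for Veh_IgG and from 20.1% to 64.9% for GYY_PD1, with 4.77% to 43.3% for GYY_IgG and 1.32% to 46.4% for Veh_PD1. The median log2 TPM of the tested genes ran from 2.89 to 3.45 in Veh_IgG and from -0.76 to 2.52 in GYY_PD1. GYY_PD1 replicates 1 and 4 stood apart, with 8198 and 6659 genes at 1 TPM or more, where the other 18 libraries ranged from 11517 to 15162. Members are therefore compared relative to the library median, as log2 TPM minus the median of the tested genes. Their differences between GYY_PD1 and Veh_IgG are given with and without these 2 libraries. Gene lists, marker sums, correlations and most other comparisons are given with all libraries only. Smarcb1, which renal medullary carcinoma typically lacks, was listed above 0 on average in each group, at 30.1 TPM in Veh_IgG and 11.1 TPM in GYY_PD1, and the share of host cells was not measured.

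All 7 genes were detected in every library, and their order of level was the same in all 20. B2m was highest, at 1682 TPM on average and rank 27 of the tested genes, followed by H2-D1 at 327.5 TPM (rank 108) and H2-K1 at 194.5 TPM (rank 205). H2-Q4 followed at 100.6 TPM (rank 440) and H2-T23 at 27.5 TPM (rank 2052). Nlrc5 stood at 6.60 TPM and H2-Q7 at 1.24 TPM, and only 12 of 20 libraries reached 1 TPM for H2-Q7. Neighbours in this order never crossed: the smallest gap was between H2-K1 and H2-Q4, where the ratio ranged from 1.33 to 2.57 over the libraries. B2m exceeded H2-D1 by 4.56 to 6.21 times, and H2-D1 exceeded H2-K1 by 1.53 to 1.93 times.

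**Figure D1:**
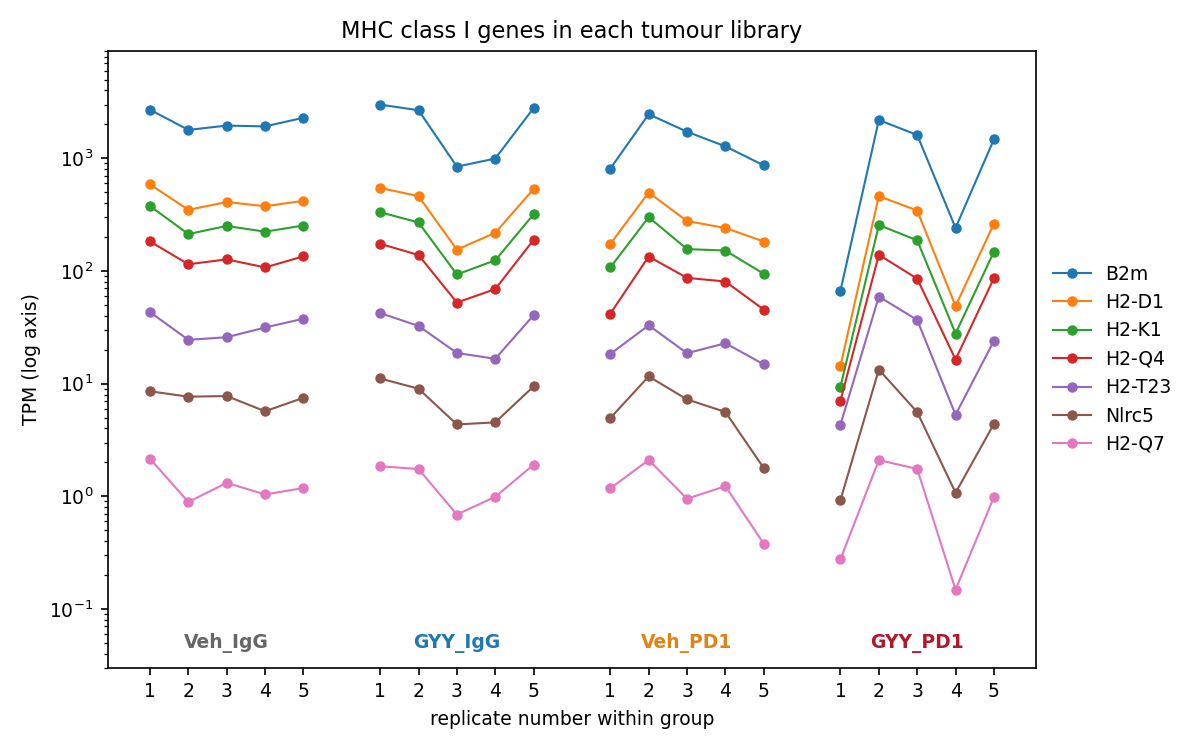
TPM (log axis) of the 7 genes in each of the 20 libraries, in 4 groups of 5; lines only join the libraries of a group and replicate numbers have no order. The order of the genes is the same in every library, and all 7 are lowest or next to lowest in GYY_PD1 replicates 1 and 4.

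H2-K1, the classical heavy chain of the K locus, held 377, 213, 251, 223 and 253 TPM in Veh_IgG replicates 1 to 5. It held 332, 269, 93.0, 124 and 318 TPM in GYY_IgG and 107, 300, 156, 152 and 94.3 TPM in Veh_PD1. In GYY_PD1 it held 9.38, 255, 187, 27.8 and 148 TPM. The lowest values were thus in the 2 GYY_PD1 libraries that stand apart, and the other 3 lay within the range of the remaining groups. Relative to the library median most of this spread was gone: H2-K1 averaged 4.91 ± 0.13 in Veh_IgG and 4.94 ± 0.21 in GYY_IgG (log2, SD, n = 5). The antibody groups averaged 4.98 ± 0.34 (Veh_PD1) and 4.97 ± 0.57 (GYY_PD1). GYY_PD1 replicate 1 was at 3.99, while the other 4 libraries of its group ran from 5.10 to 5.48.

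H2-D1, the classical heavy chain of the D locus, followed H2-K1 closely. Relative to the library median it averaged 5.62 ± 0.09 in Veh_IgG and 5.70 ± 0.23 in GYY_IgG (log2, SD, n = 5), then 5.75 ± 0.30 (Veh_PD1) and 5.77 ± 0.67 (GYY_PD1). Its GYY_PD1 values were 4.61, 6.33, 6.03, 5.95 and 5.93, so 4 of 5 lay above the highest Veh_IgG library (5.75) and replicate 1 lay below the lowest (5.52). The ratio of H2-K1 to H2-D1, which no scaling of the libraries can change, had a log2 value of -0.95 to -0.61 over all 20 libraries, with group means from -0.80 (GYY_PD1) to -0.71 (Veh_IgG). The 2 classical heavy chains thus kept a nearly constant proportion while H2-K1 itself ranged from 9.38 to 377 TPM.

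B2m, the light chain of all these heavy chains, had the tightest control group: 7.95, 7.92, 7.93, 7.94 and 7.97 relative to the library median in Veh_IgG (log2, SD 0.02, n = 5). In GYY_IgG it was 8.21, 7.98, 7.96, 8.20 and 8.16, and in Veh_PD1 8.13, 8.11, 7.86, 8.29 and 8.18. In both groups 4 of 5 libraries lay above every control library. In GYY_PD1 the values were 6.83, 8.57, 8.26, 8.25 and 8.41, with 4 libraries above every control and replicate 1 below every other library of the 20. Without GYY_PD1 replicates 1 and 4 the spread of B2m within groups (SD 0.12) was smaller than that of all but 1.3% of the tested genes. With all libraries it was 0.37, with 31.5% of genes below.

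These shifts in B2m and the classical heavy chains did not pass the test. For GYY4137 alone the limma difference of B2m was 0.16 (SE 0.29, log2, adjusted p = 1.00), and for the antibody alone it was 0.17 (SE 0.29, adjusted p = 1.00). The fit uses 1 spread per gene for all groups, and B2m varied most in GYY_PD1. In limma fits of only the groups compared, B2m did not pass either. It had an SE of 0.165 (adjusted p = 0.970) for GYY_IgG and 0.204 (adjusted p = 0.874) for Veh_PD1. Compared library by library, B2m gave an exact permutation p = 0.0159 for GYY_IgG and p = 0.0476 for Veh_PD1 against Veh_IgG (two-sided, unadjusted, n = 5 each). Why the tests differ was not tested. For GYY_PD1 against Veh_IgG the limma differences were 0.13 for B2m (SE 0.29, adjusted p = 0.797), 0.15 for H2-D1 (SE 0.25, adjusted p = 0.709) and 0.06 for H2-K1 (SE 0.22, adjusted p = 0.875). Without GYY_PD1 replicates 1 and 4 they were 0.48, 0.48 and 0.33, and none passed.

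H2-Q4, a non-classical heavy chain of the Q region that was the fourth most abundant member, lay at 3.93 ± 0.11 in Veh_IgG and 4.08 ± 0.26 in GYY_IgG relative to the library median (log2, SD, n = 5). It was at 3.91 ± 0.27 in Veh_PD1 and 4.18 ± 0.39 in GYY_PD1. The GYY_PD1 libraries, at 3.59, 4.60, 4.02, 4.37 and 4.32, overlapped the control libraries, which ran from 3.78 to 4.06. Its difference between GYY_PD1 and Veh_IgG was 0.25 (SE 0.17, limma adjusted p = 0.408). Leaving out GYY_PD1 replicates 1 and 4 gave 0.38 (SE 0.17, limma adjusted p = 0.594).

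H2-T23 passed the adjusted test in no comparison relative to the library median, and had the smallest p of the members for GYY_PD1 against Veh_IgG. It encodes Qa-1, a non-classical molecule that presents leader peptides of other class I heavy chains to the CD94/NKG2 receptors of NK cells and CD8 T cells. Relative to the library median it was 1.98, 1.73, 1.69, 2.01 and 2.04 in Veh_IgG and 2.88, 3.37, 2.81, 2.74 and 2.47 in GYY_PD1 (log2, replicates 1 to 5). Every GYY_PD1 library lay above every control library, including the 2 that stand apart. The same was true of 1.63% of all tested genes.

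In the single-treatment groups H2-T23 was 2.06, 1.62, 2.46, 2.29 and 2.05 (GYY_IgG) and 2.66, 1.88, 1.33, 2.49 and 2.31 (Veh_PD1). Both groups overlapped the control, and every GYY_PD1 library was also above every GYY_IgG library, by 2.471 against 2.461 at the closest, as for 0.428% of tested genes. Veh_PD1 replicate 1 lay above GYY_PD1 replicate 5, so these 2 groups overlapped.

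The difference of H2-T23 between GYY_PD1 and Veh_IgG was 0.96 (SE 0.22, log2), a fold of 1.95 with a 95% interval of 1.41 to 2.71. Its p of 0.000404 ranked 40 of 15422 genes and did not pass after adjustment (limma, adjusted p = 0.156), and the exact permutation p was 0.00794, the smallest that 252 splits allow. Against GYY_IgG the difference was 0.76 (SE 0.22, adjusted p = 0.461, exact permutation p = 0.00794) and against Veh_PD1 0.72 (SE 0.22, adjusted p = 0.332, exact permutation p = 0.0238). GYY4137 alone gave 0.21 and the antibody alone 0.24 (SE 0.22, adjusted p = 1.00 for both). The interaction, the excess of the combination over the sum of the single treatments, was 0.51 (SE 0.31, 95% interval -0.16 to 1.18, adjusted p = 0.875). Without GYY_PD1 replicates 1 and 4 the difference from Veh_IgG was 0.99 (adjusted p = 0.337).

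H2-Q7, which encodes Qa-2, a non-classical molecule often tethered to the membrane by a lipid anchor, was the rarest member, at 0.148 to 2.15 TPM. Relative to the library median it was -2.34, -3.05, -2.61, -2.91 and -2.95 in Veh_IgG and -1.09, -1.45, -1.59, -2.42 and -2.14 in GYY_PD1. GYY_PD1 was above every control in 4 of 5 libraries, and replicate 4, one of those that stand apart, fell within the control range. The difference was 1.04 (SE 0.35, limma adjusted p = 0.237, exact permutation p = 0.0159), a fold of 2.05 with a 95% interval of 1.22 to 3.45. Leaving out GYY_PD1 replicates 1 and 4 gave 1.05 (SE 0.365, limma adjusted p = 0.488). Veh_PD1 spread most, from -2.98 to -1.30, and GYY_IgG ran from -2.60 to -1.78. At these levels the counts behind a value are few, and their number is unknown.

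Nlrc5, the class I transactivator, showed the same order of groups as H2-Q7. Relative to the library median it was -0.35, 0.05, -0.05, -0.46 and -0.29 in Veh_IgG and 0.65, 1.22, 0.09, 0.44 and 0.02 in GYY_PD1. In GYY_PD1 4 of 5 libraries lay above every control and replicate 5 lay within the control range. The difference was 0.70 (SE 0.26, limma adjusted p = 0.25, exact permutation p = 0.0159), a fold of 1.63 with a 95% interval of 1.11 to 2.40. Leaving out GYY_PD1 replicates 1 and 4 gave 0.66 (SE 0.31, limma adjusted p = 0.618). GYY4137 alone gave 0.34 and the antibody alone 0.39 (SE 0.26), with overlapping groups in both.

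**Figure D2:**
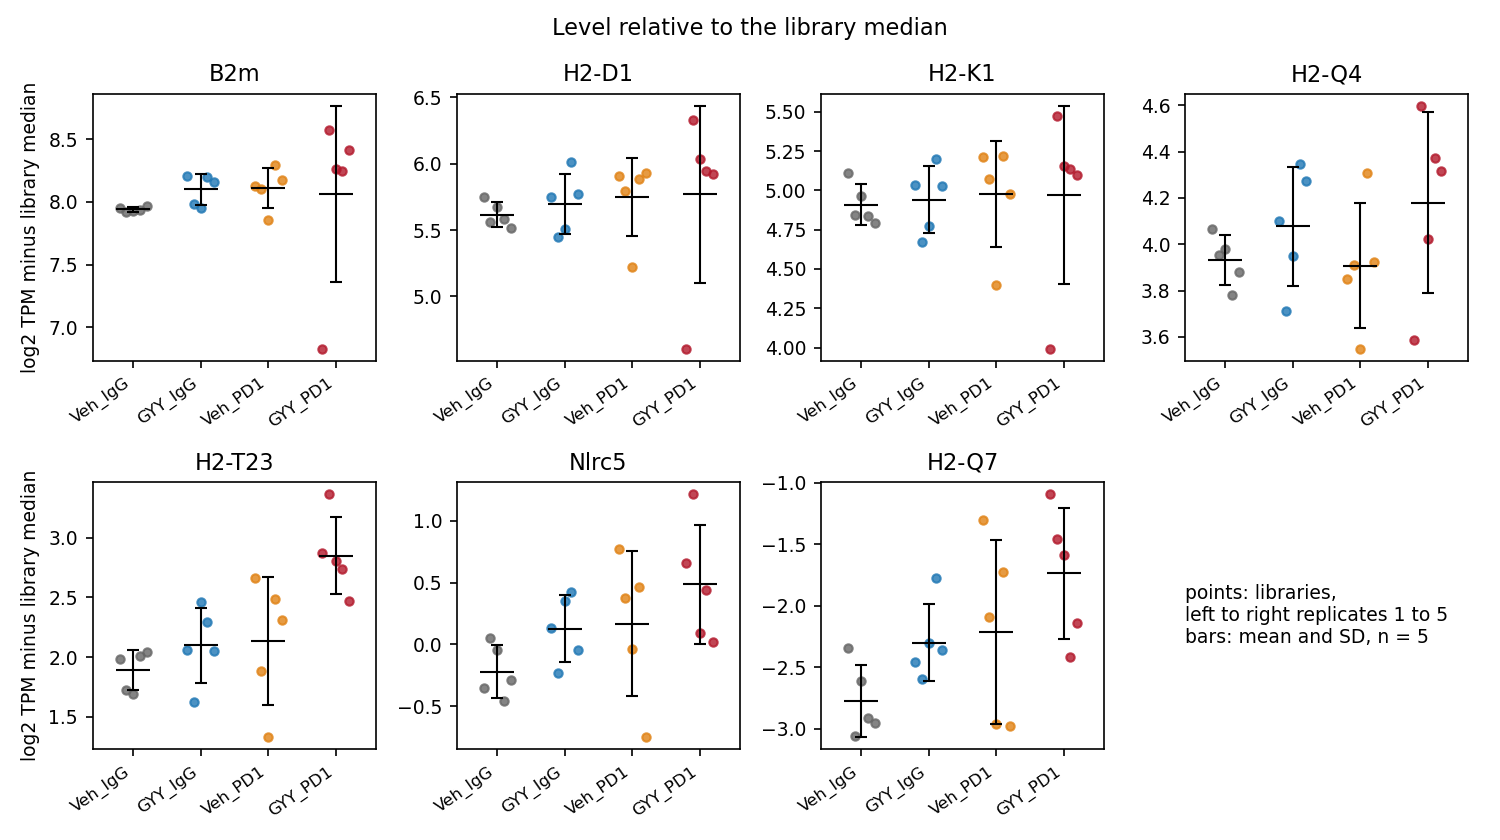
Log2 TPM minus the library median for each gene (vertical axis, own scale per panel) in the 4 groups; points are libraries, black bars the mean and SD of 5. For H2-T23 all 5 GYY_PD1 points lie above all Veh_IgG points; for B2m, H2-D1 and H2-K1 a low GYY_PD1 point, replicate 1, widens the bar.

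Across the set, no member passed the limma test in any comparison, and few genes of any kind did. For GYY_PD1 against Veh_IgG, 0 of 7 members and 0% of the 15422 tested genes passed, and at an unadjusted p under 0.05 it was 3 of 7 members (H2-T23, H2-Q7 and Nlrc5), beside 16.9% of all genes in either direction and 5.5% in the higher direction. All 7 members had a positive difference, with a median of 0.25, where all tested genes had a median of -0.17. For GYY_IgG against Veh_IgG, 0 members and 0% of genes passed, and 0 members reached an unadjusted p under 0.05, beside 1.15% of genes. All 7 differences were positive there too, from 0.03 to 0.48 with a median of 0.16, against -0.01 for all genes. For Veh_PD1 against Veh_IgG, 0 members and 0% of genes passed and 0 members reached an unadjusted p under 0.05, beside 1.77% of genes. There 6 of 7 differences were positive, and H2-Q4 had -0.02. In neither single-treatment group was a member higher in every library than in all controls, as were 0.421% (GYY_IgG) and 0.473% (Veh_PD1) of genes. These 3 comparisons share the Veh_IgG libraries, so their signs are not independent.

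Adding GYY4137 to the antibody (GYY_PD1 against Veh_PD1) gave 0 called members, beside 0.00648% of genes, and 1 member at an unadjusted p under 0.05, H2-T23, beside 12.9% in either direction and 4.47% in the higher one. No member was higher, or lower, in every GYY_PD1 library than in all Veh_PD1 libraries, as were 0.376% and 0.687% of genes. Adding the antibody to GYY4137 (GYY_PD1 against GYY_IgG) gave 0 called members and 0% of genes, and again H2-T23 alone at an unadjusted p under 0.05, beside 9.77% in either direction and 2.85% in the higher one. H2-K1, H2-D1 and B2m had estimates from -0.05 to 0.07 in these comparisons, with a 95% interval of -0.66 to 0.57 for B2m against Veh_PD1. The interaction called 0 members and 0% of genes, with 0 members at an unadjusted p under 0.05, beside 2.44%. Its estimates ran from -0.21 for B2m to 0.51 for H2-T23.

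**Figure D3:**
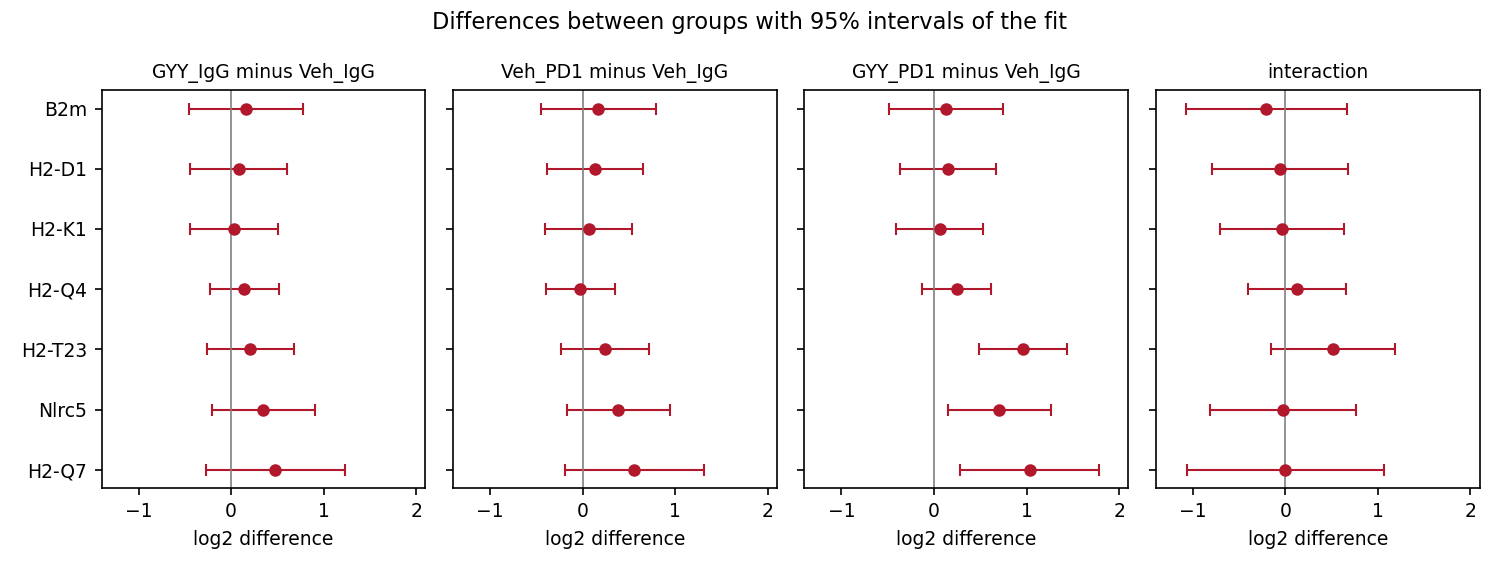
Log2 differences (horizontal axis, relative to the library median) of the 7 genes in 3 comparisons with Veh_IgG and in the interaction; points are estimates of the fit and bars 95% intervals. Only for GYY_PD1 minus Veh_IgG do unadjusted intervals lie wholly above 0, for H2-T23, Nlrc5 and H2-Q7, and none of the 3 passed after adjustment.

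The scaling of the libraries and the pseudocount decided the sign for the abundant members. On the deposited log2 TPM, where the median of all tested genes differed by -2.09 between GYY_PD1 and Veh_IgG, all 7 members were negative, from -1.85 for H2-K1 to -0.88 for H2-Q7. H2-K1, H2-D1 and H2-Q4 were called lower there, as were 69.9% of all tested genes. Rescaled to the sum of nuclear coding genes, 5 members and 80.1% of genes were called lower. This rescaling also added a pseudocount of 1, so its values mix scaling and pseudocount. On the deposited scale each member lay above the median shift of all genes. Under the coding-gene rescaling, where that shift was -2.09, H2-K1 (-2.46), B2m (-2.42), H2-D1 (-2.38) and H2-Q4 (-2.26) lay below it, and Nlrc5 (-1.53), H2-T23 (-1.51) and H2-Q7 (-0.75) lay above it. With a pseudocount of 1 before the median was subtracted, B2m, H2-D1, H2-K1 and H2-Q4 were at -0.39, -0.34, -0.42 and -0.22, and H2-T23, Nlrc5 and H2-Q7 were at 0.53, 0.53 and 1.13. A rescaling to coding genes without Gm-numbered models, again with a pseudocount of 1, was chosen after seeing the data. There H2-T23 was at 0.81, H2-Q7 at 0.75 and Nlrc5 at 0.54, while H2-Q4, H2-D1, B2m and H2-K1 were at 0.10, 0.01, -0.02 and -0.08.

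**Figure D4:**
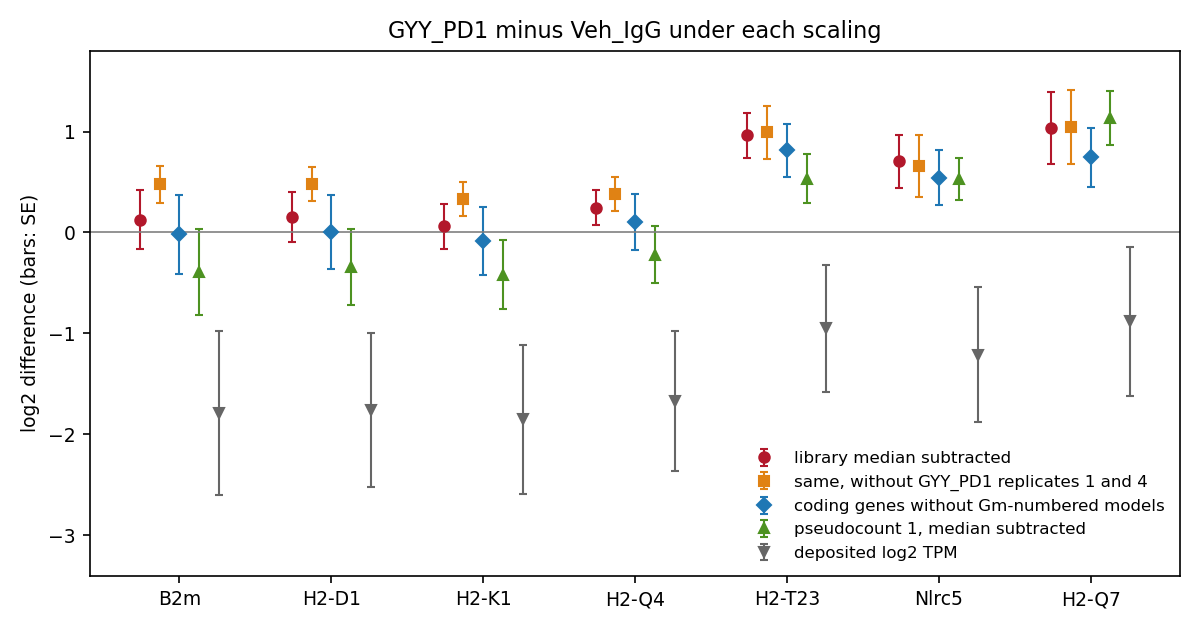
GYY_PD1 minus Veh_IgG (vertical axis, log2 difference, bars SE) for each gene under 5 ways of scaling the libraries. H2-T23, Nlrc5 and H2-Q7 lie above the 4 more abundant genes under each; all 7 are negative on the deposited scale, and the 4 abundant genes change sign between the others.

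Ratios between members of the same library do not depend on that scaling. The log2 ratio of H2-T23 to H2-K1 was -3.13, -3.12, -3.28, -2.83 and -2.75 in Veh_IgG and -1.12, -2.11, -2.35, -2.40 and -2.63 in GYY_PD1. Every GYY_PD1 library was higher, as for 0.674% of tested genes set against H2-K1. Set against H2-D1, H2-T23 was again higher in every GYY_PD1 library (highest control -3.474, lowest GYY_PD1 -3.454), as for 0.564% of genes. Both hold without GYY_PD1 replicates 1 and 4 too, since they hold for every library.

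Set against B2m, H2-T23 was at -5.97, -6.19, -6.24, -5.93 and -5.93 in Veh_IgG and at -3.95, -5.21, -5.46, -5.51 and -5.94 in GYY_PD1. The groups met at 1 library, GYY_PD1 replicate 5, and replicate 1 was the highest of all 20. In a fit of all genes relative to B2m, the H2-T23 difference was 0.84 (SE 0.28, limma adjusted p = 0.0555), and 0 of 6 members passed, beside 13.4% of 15421 genes in either direction and 0.434% in the higher one. Leaving out single libraries moved this p across the threshold. It was 0.0436 without GYY_PD1 replicate 1, where the difference was 0.52. It was 0.0246 without GYY_PD1 replicate 5 and 0.0478 without Veh_PD1 replicate 3. Without GYY_PD1 replicates 1 and 4 it was 0.0745, with a difference of 0.52. In the order named, these fits called 91, 93, 72 and 43 of 15421 genes higher, and 6605, 1783, 2216 and 6181 lower. Relative to B2m the other members had differences of 0.91 for H2-Q7 (SE 0.46), 0.58 for Nlrc5 (SE 0.34), 0.12 for H2-Q4 (SE 0.15), 0.03 for H2-D1 (SE 0.10) and -0.06 for H2-K1 (SE 0.11). Without GYY_PD1 replicate 1 H2-Q7 had 0.44 (SE 0.33), Nlrc5 0.23 (SE 0.26), H2-Q4 -0.04 (SE 0.10), H2-D1 0.008 (SE 0.11) and H2-K1 -0.13 (SE 0.11). Without replicates 1 and 4 H2-Q7 had 0.57 (SE 0.35), Nlrc5 0.19 (SE 0.29), H2-Q4 -0.10 (SE 0.11), H2-D1 0.003 (SE 0.12) and H2-K1 -0.14 (SE 0.12).

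**Figure D5:**
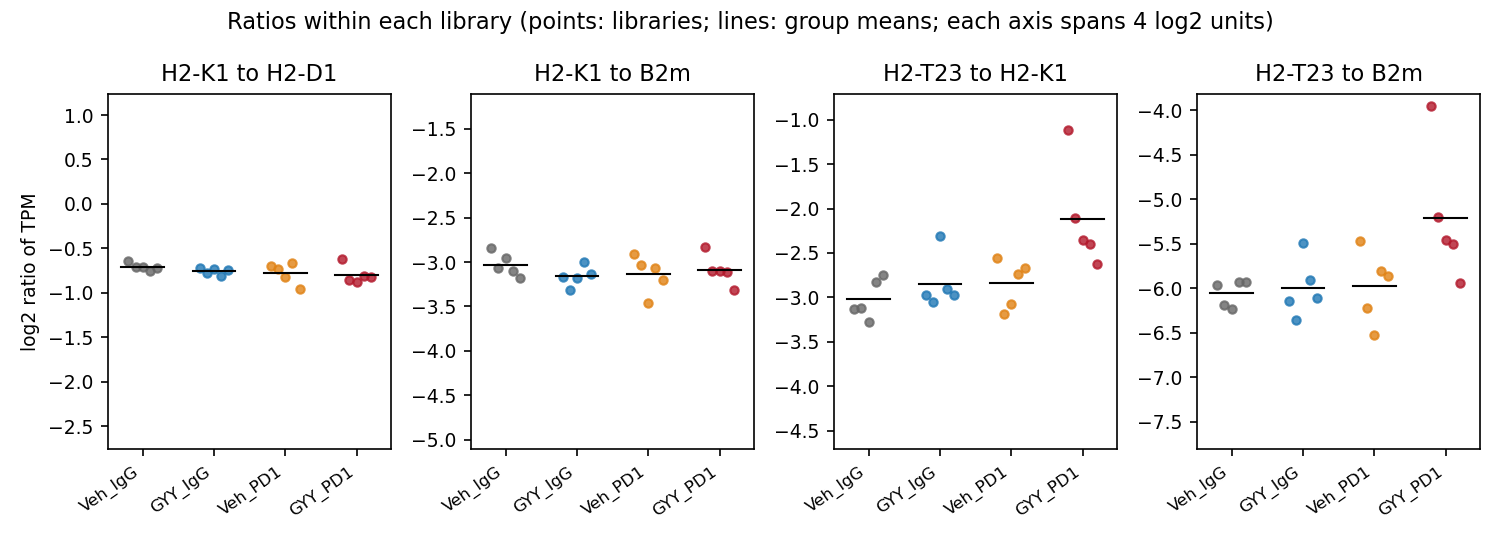
Log2 ratios of TPM between pairs of genes within each library (vertical axes, each spanning 4 log2 units) in the 4 groups; points are libraries and lines group means. H2-K1 keeps a near-constant ratio to H2-D1 and to B2m, while the ratio of H2-T23 to H2-K1 is higher in all 5 GYY_PD1 libraries than in any Veh_IgG library.

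Over the 20 libraries H2-K1, H2-D1 and B2m were the most alike of the members, and every other pair of members had a lower rho. H2-K1 and H2-D1 had a Spearman rho of 0.89 relative to the library median, and each was the gene most like the other of all tested genes. B2m had 0.78 with H2-K1 and 0.85 with H2-D1, and H2-Q4 had 0.74 to 0.75 with these 3. Ordered by rho with H2-Q4, B2m ranked 10, H2-K1 11 and H2-D1 12 of all tested genes. Nlrc5 had 0.76 with H2-Q7 and 0.64 with H2-T23, and only 0.32 to 0.48 with H2-K1, H2-D1, B2m and H2-Q4. H2-T23 had 0.72 with H2-Q7 and 0.43 to 0.59 with the 4 abundant members, and H2-Q7 had 0.275 to 0.541 with those 4. Among all tested genes ordered by rho with H2-T23, H2-Q7 ranked 131 and Nlrc5 305. These are descriptions over 20 libraries of 4 groups, which share the unequal composition described above, and heavy chains that share sequence can share reads.

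Among genes outside the set, H2-T23 was most like Tap1 (rho 0.91), a subunit of the transporter that brings peptides to class I molecules, then Hpse and Gm45441 (0.86 each). H2-Q7 was most like the interferon-induced GTPase Ifi47 (0.93), then Fcgr4, an Fc receptor of myeloid cells (0.92), and F830016B08Rik (0.91). Nlrc5 was most like F830016B08Rik and Il18bp, the binding protein of interleukin 18 (0.86 each), and A530032D15Rik (0.85). H2-K1 was most like Gm6316 (0.85), H2-Q6 (0.84) and the interferon-induced membrane protein Ifitm3 (0.82), and H2-D1 like Gm6316 (0.84), Gapdh-ps14 and H2-Q6 (0.82 each). B2m was most like Ankrd27 (0.93), H2-Q6 (0.82) and Gapdh (0.81). H2-Q4 was most like Vps39 (0.81), Hgsnat (0.79) and Ctsz, a lysosomal protease (0.78).

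The other class I heavy chains were low. Of 31 listed, 26 were found and 15 tested, of which H2-T22 at 17.8 TPM and H2-Q6 at 15.0 TPM on average were the highest H2 genes. For GYY_PD1 against Veh_IgG, 0 of the 15 passed and 4 had an unadjusted p under 0.05, beside 16.9% of all tested genes. H2-T24 (2.14, SE 0.58), H2-T22 (1.21, SE 0.36) and the pseudogene H2-T-ps (0.84, SE 0.26) had positive differences, and Fcgrt, the neonatal Fc receptor, had -0.70 (SE 0.25). H2-T10, the other tested gene of the T region, had -0.93 (SE 0.93), with a lowest value of 0 TPM. The median over the list was 0.18, against -0.17 for all tested genes. H2-T-ps shares sequence with H2-T23, so their values are not separate evidence.

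Peptide loading and the immunoproteasome are the steps before a class I molecule leaves the cell interior. For GYY_PD1 against Veh_IgG, 0 of 13 genes were called, 10 were positive and 5 had an unadjusted p under 0.05. The same p was reached by 16.9% of all tested genes, in either direction. The median of the list was 0.36, against -0.17 for all tested genes. Tap1 had 0.75 (SE 0.18), and the immunoproteasome subunits Psmb9 and Psmb10 had 1.16 (SE 0.42) and 1.06 (SE 0.35). Psme1, a proteasome activator subunit, had 0.53 (SE 0.18). For GYY_IgG against Veh_IgG all 13 were positive, with a median of 0.15 against -0.01 for all tested genes. There 0 were called or reached an unadjusted p under 0.05, beside 1.15% of all tested genes at that p.

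Of 15 transcription regulators 0 were called for GYY_PD1 against Veh_IgG and 7 were positive. The median was -0.06, against -0.17 for all tested genes. Ciita, the class II transactivator related to Nlrc5, had 2.38 (SE 0.51) and Irf1, an interferon-induced transcription factor, 1.01 (SE 0.24), while Atf1 had -0.23 (SE 0.11). Their limma adjusted p values were 0.144, 0.175 and 0.305. In the interferon gamma signalling list, which shares members with the regulators, 0 of 7 tested genes passed, 4 were positive, and the receptor chains Ifngr1 and Ifngr2 had -0.39 (SE 0.16) and -0.61 (SE 0.32). Ifng itself was below the filter. Of 15 receptors of class I molecules only Lilrb4a (0.99, SE 0.45) and Pirb (-0.04, SE 0.26) were tested, and 0 passed. Cd8a was below the filter.

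Markers of immune cells, which carry much class I, were read in the same libraries as a whole list. In bulk RNA, more cells of a type and more RNA per cell cannot be told apart. The summed level of 10 T and NK cell markers relative to the library median ran from -2.34 to -0.88 for Veh_IgG and from 0.70 to 3.11 for GYY_PD1 (log2). It ran from -0.39 to 0.77 for GYY_IgG and from -1.49 to 1.20 for Veh_PD1. All 5 GYY_PD1 and all 5 GYY_IgG libraries lay above the controls, whereas H2-T23 in GYY_IgG overlapped them. No share over sums of other genes was computed. The sums were low, from 1.46 to 4.84 TPM in Veh_IgG and 1.29 to 17.1 TPM in GYY_PD1. Only 4 of the 10 markers were tested, all with positive differences for GYY_PD1 against Veh_IgG. Their median was 2.19, against -0.17 for all tested genes, and 0 of them were called. Cd3e averaged 0.589 TPM in Veh_IgG, 1.08 TPM in GYY_IgG, 1.00 TPM in Veh_PD1 and 1.02 TPM in GYY_PD1. No marker of this list was at 0 in every library of a group. Their part in the values of H2-T23, H2-Q7 and Nlrc5 was not tested.

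The 7 pan-leukocyte markers summed to 4.51 to 5.09 in Veh_IgG and 4.47 to 5.79 in GYY_PD1, overlapping, with 6 of 7 positive, a median difference of 0.45 and 0 called. The 6 dendritic cell markers summed to -1.26 to 0.22 and 0.26 to 2.86, with 2 tested and 0 called. Macrophage markers summed to 6.22 to 6.75 and 5.61 to 6.55, with 1 of 7 positive and 0 called. Endothelial markers, from cells that also carry class I, ran from 0.41 to 2.94 and 2.00 to 3.75, with 4 of 4 positive and 0 called. Their part in the members' values was not tested either.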

How the data were processed

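The deposited table holds log2 TPM of 20 libraries, made by the authors. The submitters' processing notes name mm10, Salmon 0.14.1, HTSeq 0.11.0, fastp and cutadapt. Which of them made the TPM is not given in the sources used here. Per the labels' protocols, 1.0 ug of total RNA went into Nextera XT libraries. Raised back, each library sums to 999797 to 1000219 TPM. The lowest deposited value, -8.879 log2, was read as 0 TPM. Such values entered the main fit unchanged and can weigh on genes of low level. Read depth is unknown, so no counting interval is given.

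The 15422 genes reaching 1 TPM in 5 or more libraries entered a limma fit (version 3.58.1, R 4.3.3) on log2 TPM minus the library median, as 1 model of 4 groups (16 residual degrees of freedom, trended shrinkage). A gene is called at a Benjamini-Hochberg adjusted p under 0.05 over all tested genes. The second fit subtracted B2m. Exact two-sided permutation tests compared single members. The fit was tested on simulated data for GYY_PD1 minus Veh_IgG, drawn with 1 spread per gene for all groups. It called 51 of 200 genes changed by 1 log2 unit and 136 of 200 changed by 2. Unchanged genes called were 2 and 6, and 0 were called where no gene changed. The wider spread seen in GYY_PD1 was not simulated. Named genes are the members, up to 4 per list by smallest p for GYY_PD1 against Veh_IgG, and the 3 most like each member; 1 gene that this rule names is not reported here. Members and lists were chosen with earlier results of these data known. The other marker lists (B cell, neutrophil, fibroblast and kidney tubule) gave 0 called genes for GYY_PD1 against Veh_IgG, with medians of -0.12, -0.45, 0.97 and 1.30. Alternatives covered scaling, pseudocount, filter, library weights, fits of the groups compared alone and libraries left out.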

Additional observations from a re-analysis of the deposited data

Results flagged for a closer look

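Of 28 groups of 5 libraries (7 members in 4 groups), 4 had a library far from the other 4 by Dixon's criterion (a gap over range above 0.71), and chance flags about 1 in 20 groups. Of these, 3 are the same library, GYY_PD1 replicate 1, relative to the library median: H2-K1 at 3.994 where the others ran from 5.098 to 5.475, H2-D1 at 4.608 where they ran from 5.925 to 6.329, and B2m at 6.83 where they ran from 8.249 to 8.573. The fourth is H2-D1 in Veh_PD1 replicate 3, at 5.225 where the others ran from 5.797 to 5.93. GYY_PD1 replicate 1 had a library weight of 0.023, the lowest of 20.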

How the results depend on the processing

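Relative to the library median no member was called in any comparison, and none became called with another pseudocount or filter, library weights, the replicate block, the groups of a comparison alone, the added rescalings or libraries left out. The calls that appeared came with 2 other scalings. GYY_PD1 minus Veh_IgG called 3 members lower on the deposited scale, beside 69.9% of genes. It called 5 lower, beside 80.1% of genes, when rescaled to all nuclear coding genes with a pseudocount of 1. That sum includes Gm10800-like models. Counts over all genes moved too: 0 genes were called for GYY_PD1 minus Veh_IgG, against 36 higher and 5 lower with a pseudocount of 1, 9 higher and 4 lower without a filter, 9 each way with library weights and 8 lower with the 2 groups alone. The number of members called relative to B2m for GYY_PD1 minus Veh_IgG was 0 to 1 as single libraries were left out. Beside it, 20 to 93 of 15421 genes were called higher and 1192 to 6605 lower. The exact permutation test, unadjusted, passed 0.05 in 8 of 35 comparisons of a member, where limma's adjusted p did not. It was run on the members alone, so no share of all genes stands beside this count. The comparisons share libraries and are not independent. H2-T23 in GYY_PD1 minus Veh_IgG stayed between 0.53 and 1.11 under all alternatives except these 2 scalings, with adjusted p from 0.0903 to 0.416.

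Signs turned as follows, on the log2 scale, and the cause was not tested. Both coding-gene rescalings also held a pseudocount of 1. On the deposited log2 scale, GYY_IgG minus Veh_IgG had H2-K1 -0.357, H2-D1 -0.308, B2m -0.229, H2-Q4 -0.244, H2-T23 -0.180 and Nlrc5 -0.044, Veh_PD1 minus Veh_IgG had H2-K1 -0.795, H2-D1 -0.730, B2m -0.690, H2-Q7 -0.301, H2-T23 -0.618 and Nlrc5 -0.477, GYY_PD1 minus Veh_IgG had H2-K1 -1.852, H2-D1 -1.763, B2m -1.789, H2-Q4 -1.668, H2-Q7 -0.878, H2-T23 -0.951 and Nlrc5 -1.210, GYY_PD1 minus Veh_PD1 had H2-D1 -1.033, H2-Q4 -0.782, H2-Q7 -0.577, H2-T23 -0.334 and Nlrc5 -0.733, GYY_PD1 minus GYY_IgG had H2-K1 -1.495, H2-D1 -1.455, H2-Q4 -1.424, H2-Q7 -0.964, H2-T23 -0.771 and Nlrc5 -1.167, the interaction had H2-Q4 -0.537 and H2-T23 -0.153. Rescaled to all nuclear coding genes, GYY_IgG minus Veh_IgG had H2-K1 -0.724, H2-D1 -0.676, B2m -0.598, H2-Q4 -0.610, H2-Q7 -0.171, H2-T23 -0.537 and Nlrc5 -0.375, Veh_PD1 minus Veh_IgG had H2-K1 -1.117, H2-D1 -1.052, B2m -1.015, H2-Q7 -0.377, H2-T23 -0.923 and Nlrc5 -0.708, GYY_PD1 minus Veh_IgG had H2-K1 -2.458, H2-D1 -2.378, B2m -2.418, H2-Q4 -2.262, H2-Q7 -0.747, H2-T23 -1.507 and Nlrc5 -1.530, GYY_PD1 minus Veh_PD1 had H2-D1 -1.326, H2-Q4 -1.059, H2-Q7 -0.370, H2-T23 -0.585 and Nlrc5 -0.822, GYY_PD1 minus GYY_IgG had H2-K1 -1.734, H2-D1 -1.702, H2-Q4 -1.652, H2-Q7 -0.576, H2-T23 -0.970 and Nlrc5 -1.155, the interaction had H2-Q4 -0.449 and H2-T23 -0.047. With a pseudocount of 1, GYY_IgG minus Veh_IgG had H2-K1 -0.036, Veh_PD1 minus Veh_IgG had H2-K1 -0.068 and H2-D1 -0.004, GYY_PD1 minus Veh_IgG had H2-K1 -0.418, H2-D1 -0.342, B2m -0.388 and H2-Q4 -0.219, GYY_PD1 minus Veh_PD1 had H2-D1 -0.338 and H2-Q4 -0.067, GYY_PD1 minus GYY_IgG had H2-K1 -0.382, H2-D1 -0.354 and H2-Q4 -0.297, the interaction had H2-Q4 -0.145. With a pseudocount of 0.1, GYY_PD1 minus Veh_IgG had H2-K1 -0.013, GYY_PD1 minus Veh_PD1 had H2-D1 -0.042, GYY_PD1 minus GYY_IgG had H2-K1 -0.037. Rescaled without Gm-numbered models, added after seeing the data, GYY_PD1 minus Veh_IgG had H2-K1 -0.082 and B2m -0.019, GYY_PD1 minus Veh_PD1 had H2-D1 -0.131, GYY_PD1 minus GYY_IgG had H2-K1 -0.162, H2-D1 -0.122 and H2-Q4 -0.091, the interaction had H2-Q4 -0.073. With a filter of 5 TPM in 5 libraries, under which H2-Q7 was not tested, GYY_PD1 minus Veh_PD1 had H2-K1 0.118 and B2m 0.075, GYY_PD1 minus GYY_IgG had B2m 0.089, the interaction had H2-K1 0.063, H2-D1 0.038 and Nlrc5 0.073. With library weights, GYY_PD1 minus Veh_PD1 had H2-K1 0.217 and B2m 0.287, GYY_PD1 minus GYY_IgG had B2m 0.280, the interaction had H2-K1 0.200, H2-D1 0.245 and B2m 0.114, GYY_PD1 minus Veh_IgG had H2-D1 to B2m -0.030 and H2-Q4 to B2m -0.068. Without GYY_PD1 replicates 1 and 4, GYY_PD1 minus Veh_PD1 had H2-K1 0.267 and B2m 0.304, GYY_PD1 minus GYY_IgG had B2m 0.316, the interaction had H2-K1 0.235, H2-D1 0.266 and B2m 0.144, GYY_PD1 minus Veh_IgG had H2-Q4 to B2m -0.095. With the added rescaling and without these 2 libraries, GYY_PD1 minus Veh_PD1 had H2-K1 0.304 and B2m 0.342, GYY_PD1 minus GYY_IgG had B2m 0.311, the interaction had H2-K1 0.224, H2-D1 0.255 and B2m 0.133. Without the 2 mice numbered apart in the labels, GYY_IgG replicate 5 and GYY_PD1 replicate 1, also added after seeing the data, GYY_PD1 minus Veh_PD1 had H2-K1 0.240 and B2m 0.262, GYY_PD1 minus GYY_IgG had B2m 0.289, the interaction had H2-K1 0.230, H2-D1 0.248 and B2m 0.117. Leaving out each library in turn gave ranges across 0. These were for GYY_IgG minus Veh_IgG H2-K1 -0.033 to 0.098, for Veh_PD1 minus Veh_IgG H2-Q4 -0.124 to 0.065, for GYY_PD1 minus Veh_IgG H2-K1 -0.063 to 0.307, B2m -0.001 to 0.434, H2-D1 to B2m -0.006 to 0.074 and H2-Q4 to B2m -0.039 to 0.209, for GYY_PD1 minus Veh_PD1 H2-K1 -0.148 to 0.240, H2-D1 -0.121 to 0.309 and B2m -0.173 to 0.262, for GYY_PD1 minus GYY_IgG H2-K1 -0.095 to 0.275, H2-D1 -0.069 to 0.361, B2m -0.162 to 0.274 and H2-Q4 -0.002 to 0.251, for the interaction H2-K1 -0.180 to 0.209, H2-D1 -0.201 to 0.229, B2m -0.333 to 0.102 and Nlrc5 -0.255 to 0.126.

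Replicate numbers did not pair the mice: same-numbered libraries had correlations of -0.085 to 0.109 after group means were removed, and not every library correlated best with its own number. With the replicate number as a block, GYY_PD1 minus Veh_IgG called 1 gene higher and 2 lower in place of 0, none of them a member, and H2-T23 had 0.96 with an adjusted p of 0.172. Depth is unknown, which limits H2-Q7 and Nlrc5 most.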
